A study of Mus musculus with 9 samples.

Results

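Arginine, tetrahydrobiopterin and itaconate genes were followed in RAW264.7 cells, a mouse macrophage-like line derived from a tumor that Abelson leukemia virus induced in a male mouse. The 10 genes were taken by symbol from the table of expression levels: the arginine carriers Slc7a1 and Slc7a2, the inducible nitric oxide synthase Nos2, the cofactor enzyme Gch1, the citrulline-recycling enzymes Ass1 and Asl, the arginases Arg1 and Arg2, the ornithine decarboxylase Odc1 and the itaconate-forming enzyme Acod1. They are 10 of the 55401 gene identifiers in the table. Of these genes, 7 had a mean level of at least 1 TPM (a transcript's share of all transcripts, corrected for its length and scaled to the same total in each column) and were among the 12819 genes tested. All cells carried the wild-type genotype. Per the labels, they were kept for 24 h in dimethyl sulfoxide (DMSO, the vehicle), in DMSO with lipopolysaccharide (LPS), or in LPS with skatole (LPS + Ska), with 3 samples per group, numbered 5, 6 and 7. The methods of the study name a longer treatment for RNA-seq than the labels, and which applies was not settled. LPS is a cell wall component of bacteria that activates macrophages, and skatole is a methylated indole that gut bacteria make from tryptophan. No group received skatole alone, so that LPS + Ska can be set against LPS for what was added to LPS, and against DMSO for the whole treatment. The labels name DMSO for the LPS group but not for the LPS + Ska group, and whether vehicle was also present there is not given in the sources used here.

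Macrophages take up arginine through cationic amino acid carriers and use it in competing ways. Inducible nitric oxide synthase turns it, with tetrahydrobiopterin as cofactor, into nitric oxide and citrulline, and citrulline can be rebuilt into arginine by argininosuccinate synthase and lyase. Arginases instead cleave it into urea and ornithine, from which ornithine decarboxylase starts the polyamines, while aconitate decarboxylase diverts the citric acid cycle into itaconate in activated macrophages.

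The 3 columns of each treated group were not independent. In LPS, replicate 5 equaled the mean of replicates 6 and 7 within 1e-05 TPM in 17950 of the 17950 genes with all values above 0, and in LPS + Ska the same held for 17658 of 17658 genes. In DMSO it held for 10 of 15721 genes, or 0.0636%. Each LPS and LPS + Ska group therefore carries at most 2 independent values per gene. In genes with all values above 0, leaving out replicate 5 there removes no information. The relation did not hold where a column was listed at 0, as for Arg1 in LPS + Ska below. Errors are given as SD over the 3 columns, and in the tied groups they rest on at most 2 independent values. They understate the spread there if replicates 6 and 7 are the independent values, and can overstate it if those values lie closer together. If replicate 5 were taken from replicates 6 and 7, it would be their mean also where a column was listed at 0. For Arg1 in LPS + Ska it was instead at 0.0407 TPM beside 0.122 and 0 TPM. For Gm5424, a pseudogene treated below, it was at 0.130 TPM in LPS beside 0 and 0.391 TPM. How the columns were made was not tested. For differences near the threshold, the adjusted p is also given from 2 recovered values per tied group, which keep the group mean and are set apart by 0.5 of the gap between replicates 6 and 7, and from replicates 6 and 7 alone. Nothing in the labels says that samples of 1 group were separate cultures, so p-values measure the spread between these samples only.

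TPM values hold no read depth, so no counting interval can be given, and a gene at 0 is only listed at 0. Between 12498 and 13012 genes reached 1 TPM in each column. All 20 housekeeping genes examined were at 1 TPM or more in every column, and so were 9 of 10 macrophage markers; Mrc1 was at most 0.134 TPM. The summed macrophage markers were 12428 to 13398 TPM in DMSO, 7375 to 7773 TPM in LPS and 13690 to 13949 TPM in LPS + Ska, and Lyz2 made up much of that difference, with 8866 to 9673 TPM, 4219 to 4627 TPM and 9915 to 10207 TPM. The sum does not describe each marker. In LPS + Ska, Cd14 and Itgam also stood above every DMSO column, while Csf1r, Spi1, Cd68 and Fcgr1 lay below every DMSO column. Csf1r, for instance, was at 788 to 912 TPM in DMSO, 500 to 543 TPM in LPS and 454 to 479 TPM in LPS + Ska. The part of this in the results below was not tested. Markers of 7 other cell types summed to at most 3.07 TPM each in any column, that of neutrophils. In bulk samples, fewer cells that express a gene and less RNA per cell cannot be told apart.

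Sequence upstream of 4 genes is shown. Their levels differed by call or by adjusted p: Acod1 and Odc1 between LPS and DMSO, Ass1 in both directions and Gch1 with skatole. Slc7a1 also differed by adjusted p between LPS and DMSO (0.0452 by limma), but its sequence is not printed. RefSeq sequence of GRCm38.p6, the build of the files, was used, and 5 of the 10 genes had an entry (Acod1, Odc1, Ass1, Gch1 and Slc7a1). Each is written 5′ to 3′ without bases of the gene's exons. Capitals mark matches, on either strand, to a loose kB-like motif (GGG and CC set 5 bases apart), the xenobiotic element core GCGTG (the core of the site bound by the aryl hydrocarbon receptor) and TATAAA.

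Acod1 (chr14:103046762-103046976, plus strand): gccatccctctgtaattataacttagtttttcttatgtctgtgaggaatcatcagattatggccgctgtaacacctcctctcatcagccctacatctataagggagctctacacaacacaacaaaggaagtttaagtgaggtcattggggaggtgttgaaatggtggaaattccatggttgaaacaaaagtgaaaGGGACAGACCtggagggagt

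Odc1 (chr12:17544623-17544793, plus strand): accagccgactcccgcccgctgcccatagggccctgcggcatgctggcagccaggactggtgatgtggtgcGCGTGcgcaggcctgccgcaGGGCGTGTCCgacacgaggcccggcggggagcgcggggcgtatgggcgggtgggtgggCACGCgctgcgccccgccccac

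Ass1 (chr2:31470020-31470206, plus strand): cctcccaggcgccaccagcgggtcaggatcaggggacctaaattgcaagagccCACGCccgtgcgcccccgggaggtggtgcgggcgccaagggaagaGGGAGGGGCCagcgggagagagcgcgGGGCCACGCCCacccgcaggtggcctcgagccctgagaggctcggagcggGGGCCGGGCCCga

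Gch1 (chr14:47189414-47189663, minus strand): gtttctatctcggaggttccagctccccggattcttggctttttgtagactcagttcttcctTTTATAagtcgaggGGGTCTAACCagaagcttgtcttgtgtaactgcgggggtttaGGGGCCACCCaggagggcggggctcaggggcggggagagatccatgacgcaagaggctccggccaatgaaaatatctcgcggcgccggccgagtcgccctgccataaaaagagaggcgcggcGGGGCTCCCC

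In the 250 bases upstream of the RefSeq start, the kB-like letters started 55 bases upstream in Acod1, 159 bases upstream in Odc1 and 174, 132 and 10 bases upstream in Gch1. In Ass1 they started 152, 126, 76 and 63 bases upstream, with matches of the other strand at 125 and 75 that overlap these. Of 32851 promoter windows of the same length, 45.8% held this motif, so its presence sets no gene apart. The stricter kB motif (GGGA and TTTCC set 1 base apart), found in 0.356% of windows, was in none of the 5 genes. GCGTG, present in 28.2% of windows, occurred 179, 157 and 101 bases upstream of Odc1, where the match at 157 overlaps the kB-like one, and 197 and 122 bases upstream of Ass1, where the match at 122 also overlaps a kB-like one. TATAAA, in 12.4% of windows, lay 28 bases upstream of the Acod1 start, within the exon bases not printed, 28 bases upstream of the second Slc7a1 start and 188 bases upstream in Gch1. Ass1 also held the E-box CACGTG 36 bases upstream, outside the printed stretch (6.02% of windows). At a first Slc7a1 start site the kB-like letters started 79, 60, 44 and 26 bases upstream and the antioxidant element core TGACNNNGC, in 10.2% of windows, 11 bases upstream. The second Slc7a1 start held the GAS motif TTCNNNGAA, in 7.02% of windows, 146 bases upstream. No match to the ISRE core (GAAA and GAAA set 2 bases apart, in 2.98% of windows), to the STAT6-type motif (TTC and GAA set 4 bases apart, 5.85%) or to the C/EBP-type motif TTGCNNAA (9.56%) lay in these windows. A match is a description of letters and not of binding.

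A gene was called different at an adjusted p (limma on log2(TPM + 1), Benjamini-Hochberg over all tested genes) below 0.05 with a fold change above 1.5 or below 0.67. Between LPS and DMSO, 3 of the 7 tested genes were called higher in LPS, namely Nos2, Odc1 and Acod1, against 12.7% of all tested genes, and 0 were called lower, against 20.0%. In the comparison of LPS + Ska with LPS, 0 of 7 were called in either direction by limma. Among all tested genes, 3.35% were called higher and 6.14% lower. Nos2, Acod1 and Gch1 had an adjusted p below 0.05 with changes inside the fold limits. Of these, 1 went upward and 2 downward, against 8.89% and 19.7% of all tested genes by adjusted p alone. Between LPS + Ska and DMSO, the same 3 genes as under LPS were called higher, against 11.4%, and 0 were called lower, against 25.3%. The first and last comparisons share the DMSO samples, so the calls in them are not independent of each other. When TPM were rescaled by median ratios, the share of higher calls among all calls went from 35.3% to 52.1% between LPS + Ska and LPS and from 31.0% to 48.6% between LPS + Ska and DMSO, and the median log2 difference of all genes in the latter went from -0.18 to -0.011.

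**Figure D1:**
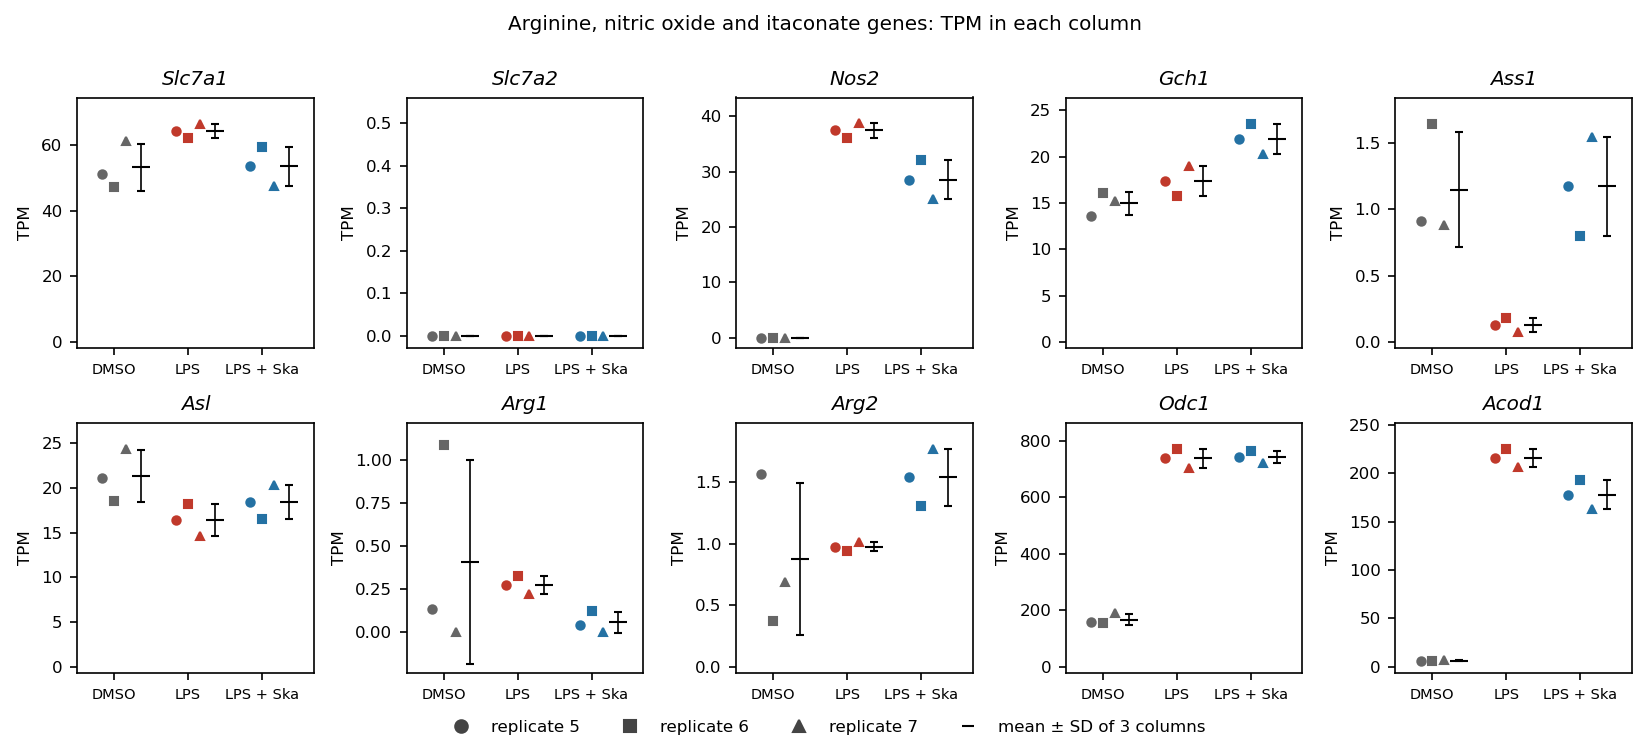
TPM (y axis, linear) of each of the 10 genes in the DMSO, LPS and LPS + Ska columns, with 1 point per column and bars for the mean ± SD of 3 columns. Nos2 and Slc7a2 were listed at 0 in DMSO, Odc1 and Acod1 stood above every DMSO column in all treated columns, and Ass1 was lowest in the LPS columns.

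Arginine import was described by Slc7a1, the widely expressed carrier (chr5:148327410-148399904, minus strand), and Slc7a2, the carrier known for supplying arginine to inducible nitric oxide synthase (chr8:40862396-40922308, plus strand). Slc7a2 was listed at 0 TPM in all 9 columns, so Slc7a1 made up all of the TPM of this pair. Slc7a1 was at 51.1, 47.4 and 61.3 TPM in DMSO (53.2 ± 7.20, SD, n = 3). It was at 64.3, 62.1 and 66.5 TPM in LPS (64.3 ± 2.2). The LPS columns lay above all DMSO columns by a small margin. The log2 difference was 0.28 (SE 0.11, limma adjusted p = 0.0452), inside the fold limits, and the adjusted p was 0.0612 with recovered values and 0.0761 with the replicate number as a block. In LPS + Ska, Slc7a1 was at 53.5, 59.3 and 47.7 TPM, below all LPS columns and within the DMSO range. The difference from LPS was -0.27 on the log2 scale (95% interval -0.50 to -0.030, limma adjusted p = 0.088), so Slc7a1 did not pass the threshold.

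Nitric oxide synthesis was described by Nos2 (chr11:78920787-78960254, plus strand). Nos2 was listed at 0 TPM in all 3 DMSO columns. In LPS it was at 37.5, 36.2 and 38.8 TPM (37.5 ± 1.30, SD, n = 3). Every LPS column thus stood far from DMSO, and the gene was called higher (limma adjusted p = 1.65e-09; 1.32e-07 with recovered values). No fold is given, since DMSO was listed at 0. With skatole beside LPS, Nos2 was at 28.5, 32.1 and 25.0 TPM (28.5 ± 3.55). All LPS + Ska columns lay below all LPS columns, and none came near DMSO. The mean ratio was 0.762, and the log2 difference was -0.39 (95% interval -0.62 to -0.16, SE 0.10, limma adjusted p = 0.0202), which did not pass the fold limit. The adjusted p was 0.0757 with recovered values and 0.281 with replicates 6 and 7 alone.

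Gch1 encodes GTP cyclohydrolase, which makes the first step toward tetrahydrobiopterin, the cofactor of Nos2 (chr14:47153895-47189413, minus strand). It was at 13.6, 16.1 and 15.2 TPM in DMSO (15.0 ± 1.28, SD, n = 3). In LPS it was at 17.4, 15.8 and 19.1 TPM (17.4 ± 1.64), so these groups overlapped. In LPS + Ska it was at 22.0, 23.6 and 20.3 TPM (22.0 ± 1.61), above every column of the other groups. The difference between LPS and DMSO was 0.21 on the log2 scale (SE 0.10, limma adjusted p = 0.098). With median-ratio scaling it was 0.28 (limma adjusted p = 0.0173), inside the fold limit. Against LPS, LPS + Ska differed by 0.32 (95% interval 0.10 to 0.54, limma adjusted p = 0.0378; 0.0881 with recovered values, 0.291 with replicates 6 and 7 alone and 0.0666 with the replicate block), the opposite sign to Nos2 and inside the fold limit. Against DMSO it differed by 0.53 (limma adjusted p = 0.0012), also inside the fold limit, and 0.70 with median-ratio scaling (adjusted p = 9.95e-05), which passed that limit.

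Citrulline recycling was described by Ass1, argininosuccinate synthase (chr2:31470207-31520672, plus strand), and Asl, argininosuccinate lyase (chr5:130011258-130029247, minus strand). Ass1 was lower in LPS than in the other groups, at low levels throughout. It was at 0.917, 1.65 and 0.884 TPM in DMSO (1.15 ± 0.432, SD, n = 3). In LPS it was at 0.129, 0.181 and 0.0766 TPM (0.129 ± 0.0521). In LPS + Ska it was at 1.18, 0.803 and 1.55 TPM (1.18 ± 0.373). No LPS column overlapped DMSO or LPS + Ska, while DMSO and LPS + Ska overlapped. The mean ratio was 0.112 for LPS over DMSO and 9.13 for LPS + Ska over LPS. Its mean over the columns was below the 1 TPM filter, so it was tested with a filter of 0.1 TPM, chosen after its values were seen. There Ass1 was called lower in LPS than in DMSO (log2 difference -0.91, SE 0.17, limma adjusted p = 0.00262; 0.00914 with recovered values), against 15.0% of the genes in that fit. It was called higher in LPS + Ska than in LPS (0.93, SE 0.17, limma adjusted p = 0.00645; 0.0349 with recovered values), against 2.97%. With replicates 6 and 7 alone the first call held (adjusted p = 0.0292) and the second did not (0.128).

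Ass1 has a near-identical processed pseudogene, Gm5424 (chr10:62071123-62072362), which matched an Ass1 transcript over 1240 bases at 99.5% identity, and how reads were divided between them is not given in the sources used here. Gm5424 was at 1.86, 0.549 and 0.465 TPM in DMSO. It was at 0.130, 0 and 0.391 TPM in LPS and at 0.283, 0.236 and 0.330 TPM in LPS + Ska. Its LPS and LPS + Ska columns overlapped, and all were below the DMSO ones. Summed with this copy, Ass1 was at 2.78, 2.197 and 1.35 TPM in DMSO. The sum was 0.259, 0.181 and 0.468 TPM in LPS and 1.46, 1.04 and 1.88 TPM in LPS + Ska. The sum in LPS again lay below every column of both other groups. The sum passed the 1 TPM filter. It was called lower in LPS than in DMSO (log2 difference -1.23, SE 0.22, limma adjusted p = 9.23e-04; 0.00261 with recovered values; 0.0141 with replicates 6 and 7 alone), against 20.0% of genes in that fit. It was called higher in LPS + Ska than in LPS (0.91, SE 0.22, limma adjusted p = 0.0137; 0.0434 with recovered values), against 3.36%, and this call was lost with replicates 6 and 7 alone (adjusted p = 0.186). From DMSO, the sum in LPS + Ska differed by -0.33 (95% interval -0.81 to 0.16, limma adjusted p = 0.215). The level of Ass1 on its own is uncertain to the extent that reads were split with the copy.

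**Figure D2:**
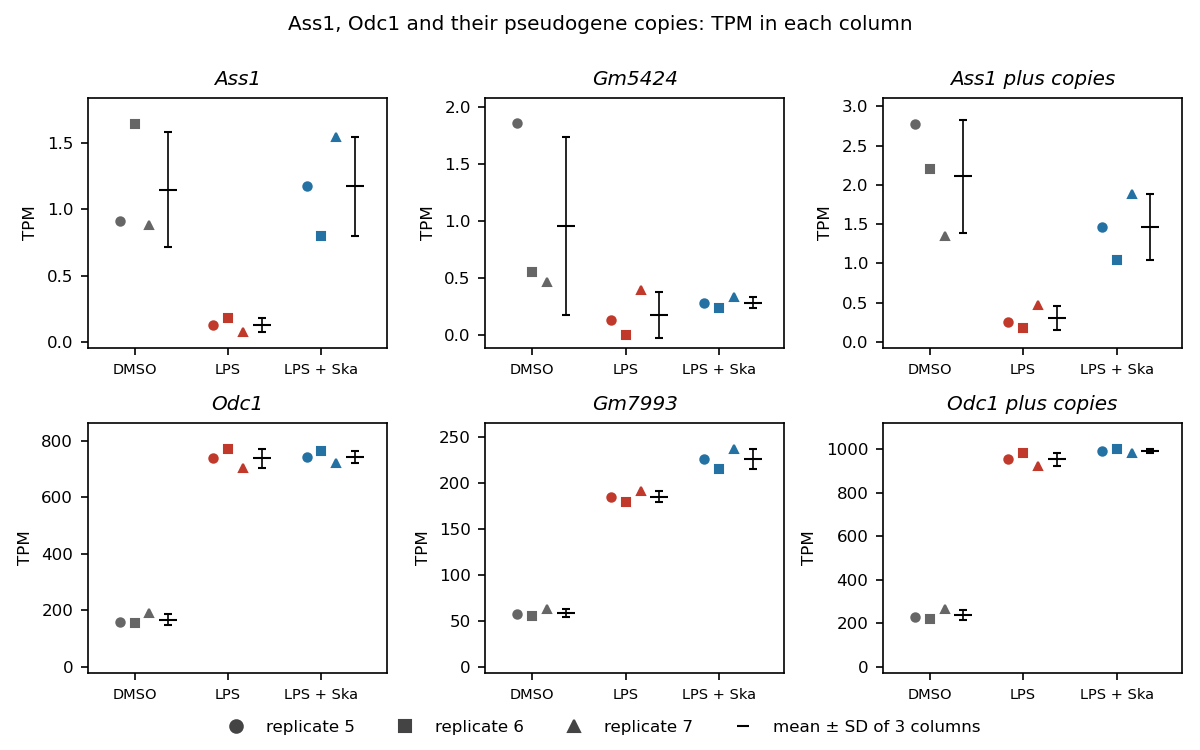
TPM (y axis, linear) of Ass1 and Odc1, of their most expressed pseudogene copies Gm5424 and Gm7993, and of each gene summed with all its pseudogene copies, with 1 point per column and bars for the mean ± SD of 3 columns. Ass1 with its copy was lowest in LPS, at 0.181 to 0.468 TPM, and Odc1 with its copies was at 219 to 264 TPM in DMSO and at 922 to 1001 TPM in the treated columns.

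Asl was at 14.6 to 24.4 TPM over the 9 columns, far above Ass1. It was at 21.1, 18.5 and 24.4 TPM in DMSO (21.3 ± 2.95, SD, n = 3). It was at 16.4, 18.2 and 14.6 TPM in LPS and at 18.4, 16.5 and 20.4 TPM in LPS + Ska. The LPS columns lay just below the DMSO ones, and the LPS + Ska columns overlapped both groups. Between LPS and DMSO the log2 difference was -0.35 (SE 0.12, limma adjusted p = 0.0319; 0.119 with replicates 6 and 7 alone and 0.0501 with the replicate block), inside the fold limit. LPS + Ska differed from LPS by 0.16 (95% interval -0.12 to 0.43, limma adjusted p = 0.37). The level of Asl over Ass1 was 11.2 to 27.6 in DMSO, 101 to 191 in LPS and 13.2 to 20.5 in LPS + Ska, as levels per transcript length and without the Ass1 copy.

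Arginases were at or near the floor of the table. Arg1, the cytosolic arginase known from alternatively activated macrophages (chr10:24915221-24927484, minus strand), was at 0.130, 1.09 and 0 TPM in DMSO. It was at 0.272, 0.323 and 0.222 TPM in LPS and at 0.0407, 0.122 and 0 TPM in LPS + Ska. The DMSO columns spanned those of both other groups, and the LPS + Ska columns lay below the LPS ones. With the filter of 0.1 TPM, limma gave adjusted p = 0.846 for LPS against DMSO, 0.464 for LPS + Ska against LPS and 0.283 for LPS + Ska against DMSO. Arg2, the mitochondrial arginase (chr12:79130777-79156301, plus strand), was at 1.57, 0.376 and 0.687 TPM in DMSO. It was at 0.977, 0.938 and 1.02 TPM in LPS and at 1.54, 1.31 and 1.77 TPM in LPS + Ska. Its LPS + Ska columns lay above its LPS columns and overlapped the widely spread DMSO ones. The log2 difference between LPS + Ska and LPS was 0.36 (95% interval -0.14 to 0.86, limma adjusted p = 0.259), so Arg2 did not pass the threshold. The mean ratio was 1.58. Over 25 alternatives the limma adjusted p ran from 0.0406 to 0.615, and Arg2 was called in none of them. Arg2 shares 285 bases of the genome with Vti1b, a gene of the other strand at 71.6 to 88.3 TPM, and whether reads were counted by strand is not given in the sources used here, so reads of the 2 genes cannot be told apart there.

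Set side by side per transcript length, Nos2 was 30.0, 28.7 and 31.3 times the summed arginases in LPS. In LPS + Ska it was 18.0, 22.4 and 14.1 times that sum. The LPS + Ska ratios were all below the LPS ones, with Nos2 lower and Arg2 higher in every column, and in DMSO the ratio was 0. Arg2 made up 78.2%, 74.4% and 82.1% of arginase TPM in LPS and 97.4%, 91.5% and 100% in LPS + Ska. In DMSO its share ran from 25.7% to 100%. These ratios are descriptions of the columns and were not tested.

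Odc1, the ornithine decarboxylase that commits ornithine to polyamines (chr12:17544794-17551505, plus strand), was the highest of the 10 genes in every group. It was at 158, 154 and 191 TPM in DMSO (168 ± 20.3, SD, n = 3). It was at 738, 772 and 704 TPM in LPS (738 ± 34.0). It was at 742, 763 and 721 TPM in LPS + Ska (742 ± 20.9). All treated columns were far above DMSO, and the treated groups overlapped. Odc1 was called higher in LPS than in DMSO (log2 difference 2.14, SE 0.080, limma adjusted p = 8.25e-08), a mean ratio of 4.40. LPS + Ska differed from LPS by 0.0087 on the log2 scale, with a 95% interval of -0.17 to 0.19 that lies inside the fold limits (limma adjusted p = 0.948).

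Odc1 has 13 annotated processed pseudogenes that match it over at least 200 bases at 90% identity or more, of which 4 were at 0 in all columns and 4 at 1 TPM or more in all. The highest, Gm7993 (95.7% identity over 1388 bases), was at 57.9, 54.7 and 62.6 TPM in DMSO. It was at 185, 179 and 191 TPM in LPS and at 226, 215 and 237 TPM in LPS + Ska. It thus followed Odc1 between DMSO and LPS and lay higher in LPS + Ska than in LPS (log2 difference 0.29, limma adjusted p = 0.00994), inside the fold limits. Gm17709 (97.8% identity) lay lower there instead (6.63, 6.15 and 5.18 TPM in DMSO, 16.7, 17.6 and 15.7 TPM in LPS, 12.1, 11.7 and 12.6 TPM in LPS + Ska, log2 difference from LPS -0.42, limma adjusted p = 0.0123), also inside the fold limits. Odc1 with all its copies summed to 228, 219 and 264 TPM in DMSO. The sum was 952, 982 and 922 TPM in LPS and 992, 1001 and 983 TPM in LPS + Ska. The sum was called higher in LPS than in DMSO (2.01, SE 0.068, limma adjusted p = 4.83e-08) and differed by 0.060 between LPS + Ska and LPS (95% interval -0.092 to 0.21, limma adjusted p = 0.538). How reads were divided among the copies is not given in the sources used here.

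Acod1, the aconitate decarboxylase that makes itaconate (chr14:103046977-103056573, plus strand), had the largest ratio of mean levels between LPS and DMSO among the genes present in DMSO. It was at 6.42, 6.00 and 6.80 TPM in DMSO (6.41 ± 0.402, SD, n = 3). It was at 216, 225 and 206 TPM in LPS (216 ± 9.53), 33.7 times the DMSO mean. It was at 178, 193 and 163 TPM in LPS + Ska (178 ± 15.1). All LPS + Ska columns lay below all LPS columns and far above DMSO. The log2 difference between LPS and DMSO was 4.87 (SE 0.076, limma adjusted p = 4.7e-10). The same difference between LPS + Ska and LPS was -0.28 (95% interval -0.45 to -0.11, limma adjusted p = 0.0222), inside the fold limit. The adjusted p was 0.0562 with recovered values and 0.236 with replicates 6 and 7 alone. With median-ratio scaling the difference was -0.18 (limma adjusted p = 0.0632). Acod1 was 5.33 to 6.24 times Nos2 in LPS and 6.01 to 6.51 times Nos2 in LPS + Ska, ranges that overlap.

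**Figure D3:**
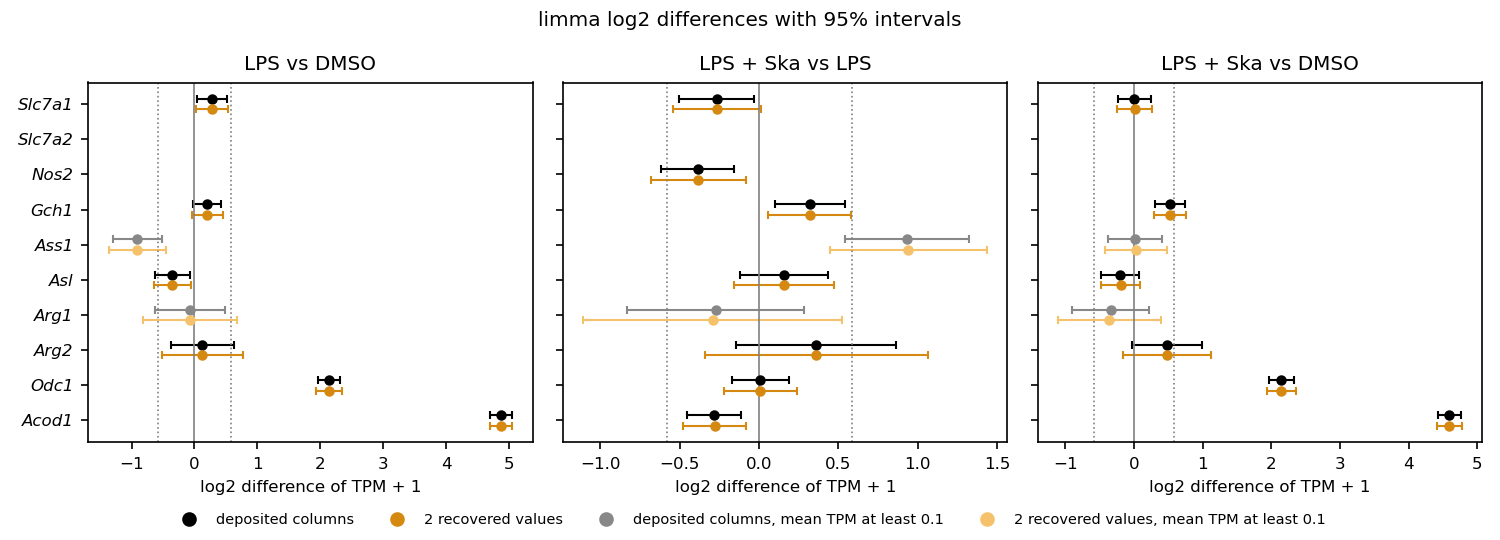
Fitted log2 differences of TPM + 1 (x axis) with 95% intervals for each gene in the 3 comparisons, from the deposited columns and from 2 recovered values per tied group; paler points are Ass1 and Arg1 with the 0.1 TPM filter, dotted lines are the fold limits, Nos2 is left out where DMSO was listed at 0, and Slc7a2 has no value. Odc1 and Acod1 lie beyond the limit against DMSO, and between LPS + Ska and LPS the intervals of Nos2 and Acod1 lie below 0 and those of Gch1 and Ass1 above 0.

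Against DMSO, LPS + Ska left Nos2 (limma adjusted p = 5.09e-09), Odc1 (log2 difference 2.15, limma adjusted p = 1.23e-07) and Acod1 (4.59, limma adjusted p = 8.19e-10) called higher. Arg2 differed by 0.48 (limma adjusted p = 0.0851), Asl by -0.20 (0.19) and Slc7a1 by 0.0094 (0.944), and none of these passed. Without DMSO replicate 5, Arg2 was called higher at 0.73 (adjusted p = 0.00443), so that this column decides that call. Ass1 differed by 0.021 with the 0.1 TPM filter (adjusted p = 0.934).

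In DMSO the order of mean levels ran from Odc1 through Slc7a1, Asl, Gch1 and Acod1 to Ass1, Arg2 and Arg1, with Nos2 and Slc7a2 at 0. The columns of each neighbor among the first 5 did not overlap, while Ass1, Arg2, Arg1 and Nos2 overlapped their neighbors. In LPS the order was Odc1, Acod1, Slc7a1, Nos2, Gch1, Asl, Arg2, Arg1, Ass1 and Slc7a2, and only Gch1 and Asl overlapped. In LPS + Ska the first 7 places were held by the same genes in the same order, followed by Ass1, Arg1 and Slc7a2. There Gch1 overlapped Asl, Arg2 overlapped Ass1, and Arg1 overlapped Slc7a2. With LPS, Acod1 and Nos2 stood higher in the order than in DMSO, and Asl and Ass1 lower.

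The rest of the pathways was described by 93 genes in 8 lists, of which 75 were tested. Between LPS and DMSO, 6 were called higher and 15 lower in LPS, where 12.7% and 20.0% of all tested genes were, with a median log2 difference of -0.26 against -0.067 over all tested genes. With skatole beside LPS, 3 were called higher and 4 lower, where 3.35% and 6.14% of all tested genes were, with a median of -0.072 against -0.096. Between LPS + Ska and DMSO, 6 were called higher and 19 lower, where 11.4% and 25.3% of all tested genes were, with a median of -0.29 against -0.18. These shares are given to read the counts against, and nothing is called particular to the lists.

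**Figure D4:**
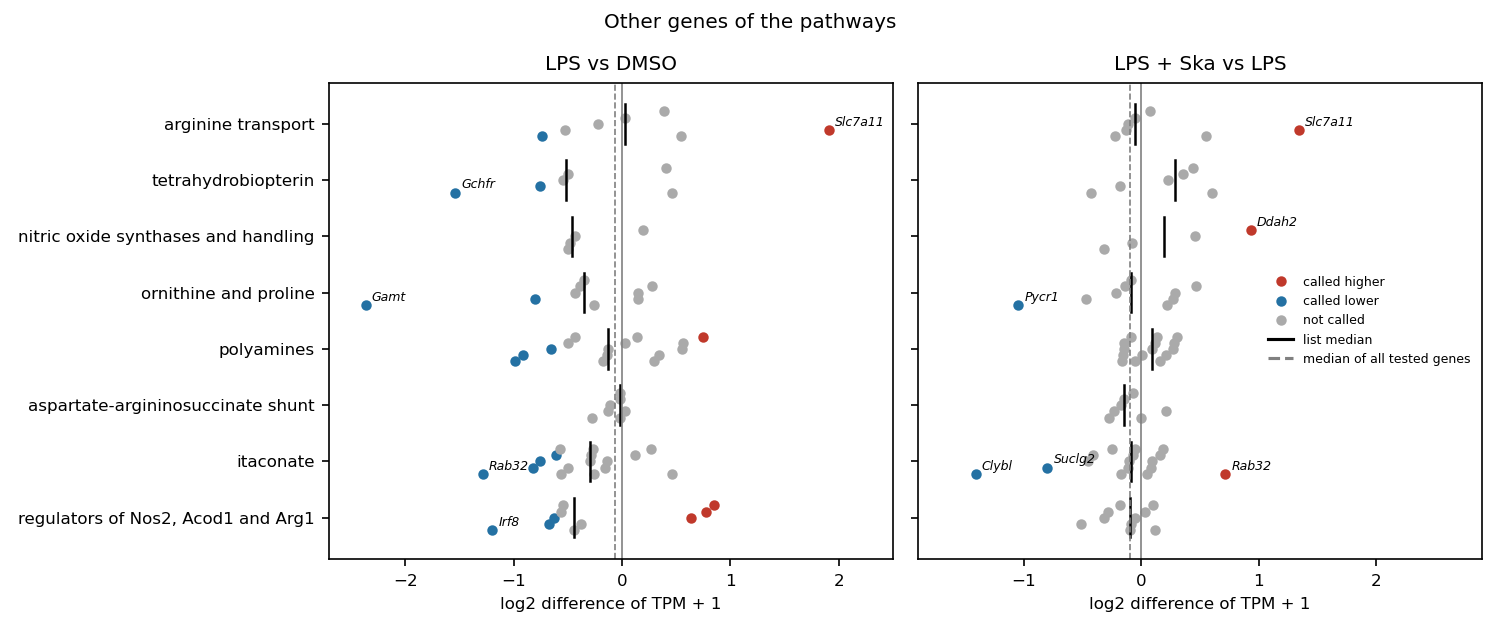
Fitted log2 differences of TPM + 1 (x axis) of the tested genes in each of the 8 lists (y axis), for LPS against DMSO and LPS + Ska against LPS; each point is a gene, colored by its call (1 gene is not shown), short vertical lines are list medians and the dashed line is the median of all tested genes. The tetrahydrobiopterin list sits at -0.52 between LPS and DMSO and at 0.29 between LPS + Ska and LPS.

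Of the arginine transport list, 7 of 8 genes were tested. Slc7a11, the cystine-glutamate exchanger, was called higher in both steps. It was at 5.65, 6.47 and 8.08 TPM in DMSO, at 27.8, 27.1 and 28.5 TPM in LPS and at 72.2, 81.0 and 63.4 TPM in LPS + Ska. The 3 groups did not overlap. The log2 difference was 1.91 between LPS and DMSO (limma adjusted p = 2.03e-06) and 1.34 between LPS + Ska and LPS (limma adjusted p = 1.43e-04; 0.00157 with recovered values). Slc66a1, a lysosomal exporter of cationic amino acids, was called lower in LPS (4.36 ± 0.550 TPM in DMSO, 2.23 ± 0.432 TPM in LPS, log2 difference -0.74, limma adjusted p = 0.00262) and was at 3.73 ± 0.626 TPM in LPS + Ska (log2 difference from LPS 0.55, limma adjusted p = 0.0268, inside the fold limit; 0.0655 with recovered values and 0.25 with replicates 6 and 7 alone). With a pseudocount of 0.1 (0.72), median-ratio scaling (0.63), TPM rescaled without mitochondrial and ribosomal protein genes (0.60), or without LPS replicate 6 or LPS + Ska replicate 7 (both 0.65), Slc66a1 passed the limit as higher in LPS + Ska than in LPS. The other 5 tested genes of the list were not called in either step.

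Of the tetrahydrobiopterin list, 6 of 7 genes were tested, and 2 were called lower in LPS than in DMSO while 0 were called between LPS + Ska and LPS. Gchfr, the feedback regulator that inhibits GTP cyclohydrolase, was at 24.3 ± 8.0 TPM in DMSO, 7.58 ± 1.67 TPM in LPS and 11.9 ± 0.894 TPM in LPS + Ska. Its log2 difference between LPS and DMSO was -1.54 (limma adjusted p = 2.02e-04). From LPS to LPS + Ska it was 0.60 (limma adjusted p = 0.0597; 0.134 with recovered values), and Gchfr was called higher there with median-ratio scaling (0.69, adjusted p of limma 0.0415), with the compared groups fitted alone (0.0289) or without DMSO replicate 5 (0.0173). Spr, sepiapterin reductase, which makes the last step of the synthesis, went from 78.0 ± 8.28 TPM to 45.6 ± 0.827 TPM with LPS (log2 difference -0.76, limma adjusted p = 0.00212) and was at 59.7 ± 14.6 TPM in LPS + Ska. Both thus changed in LPS while Gch1 itself did not pass the test there without rescaling. With median-ratio scaling Gch1 was 0.28 higher in LPS (limma adjusted p = 0.0173), inside the fold limit.

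Of 9 genes of nitric oxide synthases and handling, 4 were tested, and 0 were called between LPS and DMSO. Ddah2, a gene of the dimethylarginine dimethylaminohydrolase family, was at 0.798, 1.03 and 0.562 TPM in LPS. It was at 2.51, 3.57 and 1.46 TPM in LPS + Ska, above all LPS columns. It was called higher with skatole (log2 difference 0.93, limma adjusted p = 0.0394), a call lost with recovered values (0.0806), with replicates 6 and 7 alone (0.254), and without DMSO replicate 5, any LPS replicate or LPS + Ska replicate 5 or 6 (0.0514 to 0.117).

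Of 13 genes of ornithine and proline metabolism, 9 were tested, and 2 were called lower in LPS than in DMSO. Gamt, which makes creatine from guanidinoacetate, was at 22.4 ± 1.63 TPM in DMSO, 3.55 ± 0.192 TPM in LPS and 5.31 ± 0.769 TPM in LPS + Ska (LPS against DMSO, log2 difference -2.36, limma adjusted p = 3.7e-07). Aldh4a1, of proline breakdown, differed by -0.80 in the same comparison (limma adjusted p = 5.37e-04). Pycr1, which makes the last step of proline synthesis, was the 1 gene of this list called with skatole. It was at 5.33, 6.16 and 4.51 TPM in LPS and at 2.04, 2.08 and 1.99 TPM in LPS + Ska, groups that did not overlap. The log2 difference was -1.05 (limma adjusted p = 0.00171; 0.011 with recovered values; 0.0574 with replicates 6 and 7 alone).

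Of the 16 polyamine genes, 15 were tested, and 1 was called higher and 3 lower in LPS than in DMSO, while 0 were called between LPS + Ska and LPS. Atp13a2, the lysosomal polyamine exporter, was at 167 ± 2.89 TPM in DMSO, 83.5 ± 0.504 TPM in LPS and 75.5 ± 0.676 TPM in LPS + Ska (LPS against DMSO, log2 difference -0.99, limma adjusted p = 2.49e-07). Smox, spermine oxidase, went from 48.5 ± 1.81 TPM to 25.2 ± 0.615 TPM (-0.92, limma adjusted p = 4.56e-06). The third gene called lower was Dohh, which modifies the spermidine-derived residue of Eif5a (-0.65, limma adjusted p = 0.00228), and the one called higher was Atp13a3, a polyamine transporter (0.75, limma adjusted p = 3.68e-04). Of the aspartate-argininosuccinate shunt, 7 of 7 genes were tested and 0 were called in any of the 3 comparisons by limma, with medians of -0.019, -0.15 and -0.17.

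Of 19 genes around itaconate, 16 were tested, and 4 were called lower in LPS than in DMSO. With skatole beside LPS, 1 was called higher and 2 lower. Clybl, which clears citramalyl-CoA in itaconate breakdown, was at 9.27, 11.1 and 7.42 TPM in LPS and at 2.82, 2.67 and 2.97 TPM in LPS + Ska (log2 difference -1.41, limma adjusted p = 3.71e-04; 0.00248 with recovered values). Suclg2, a subunit of succinyl-CoA synthetase, was at 63.2 ± 0.851 TPM in LPS and 35.9 ± 0.785 TPM in LPS + Ska (-0.80, limma adjusted p = 4.09e-05; 0.00102 with recovered values). Neither gene overlapped between these groups. Rab32, which helps to deliver itaconate to pathogen-containing vacuoles, was at 77.3, 74.1 and 77.1 TPM in DMSO. It was at 30.7, 33.0 and 28.5 TPM in LPS and at 51.2, 56.2 and 46.2 TPM in LPS + Ska, so that each group stood apart. It was called lower with LPS (-1.28, limma adjusted p = 2e-06) and higher with skatole beside LPS (0.71, limma adjusted p = 4.74e-04; 0.00184 with recovered values). Auh, which acts in leucine and itaconate breakdown, was called lower with LPS (-0.82, limma adjusted p = 1.21e-04).

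Of 14 regulators of Nos2, Acod1 and Arg1, 11 were tested, with 4 called higher and 3 lower in LPS than in DMSO. The calls of this list between LPS + Ska and LPS are counted in the totals above and not described here. Irf8, an interferon regulatory factor of macrophages, was called lower in LPS than in DMSO (46.3 ± 3.46 TPM to 19.7 ± 2.42 TPM, log2 difference -1.20, limma adjusted p = 4.31e-05) and was at 18.6 ± 3.04 TPM in LPS + Ska. Hif1a (0.85, adjusted p = 4.99e-05), Nfkb1 (0.78, adjusted p = 1.66e-05) and Stat3 (0.63, adjusted p = 1.71e-04) were among those called higher by limma in LPS.

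**Figure D5:**
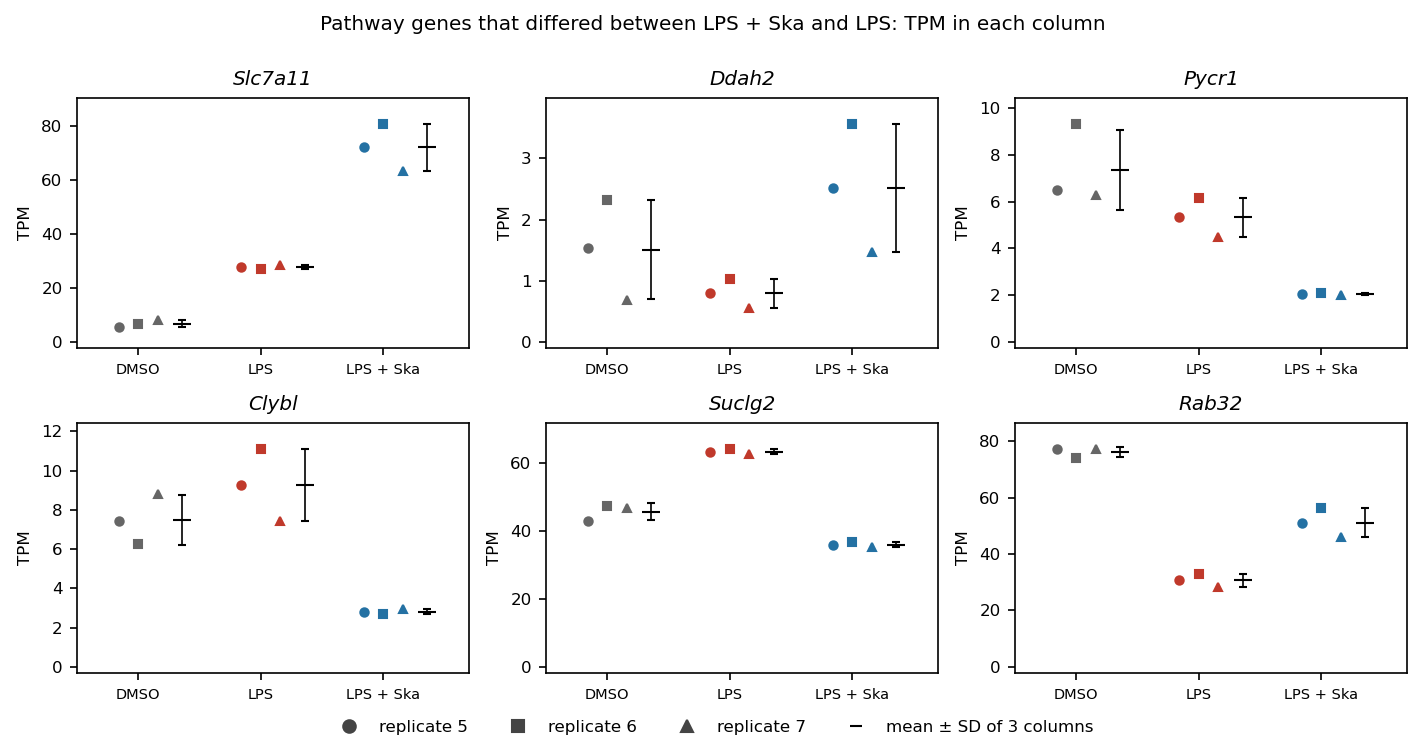
TPM (y axis, linear) in each column of 6 listed genes called between LPS + Ska and LPS, with 1 point per column and bars for the mean ± SD of 3 columns. Slc7a11, Ddah2 and Rab32 were higher and Pycr1, Clybl and Suclg2 lower in every LPS + Ska column than in any LPS column.

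Over the 9 columns, tied ones included, the genes whose log2(TPM + 1) ran most like Nos2 among 12819 tested genes were the chemokine Ccl2 (Pearson r = 0.999), the asparagine synthetase Asns (0.998) and the chemokine Ccl7 (0.998). Those most like Acod1 were Ccl7 (0.999), Ccl2 (0.999) and the phosphatase Ptpn5 (0.998). With Nos2, 66 genes had an r above 0.99, and with Acod1 65 did. Arg1, at its low level, was most like 9130008F23Rik (0.955), Gm3650 (0.947) and Anp32a (0.941). These values describe 9 columns that share groups and carry no test.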

How the data were processed

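RNA-seq of RAW264.7 cells was analyzed in 9 samples, grouped by their labels. The authors deposited TPM per gene, summing to about the same total in every column; per the labels, reads were trimmed with fastp 0.20.1, aligned to mm10 with HISAT2 2.2.1 and quantified with StringTie 2.0. Depth, strand setting and multi-mapping rules are not given in the sources used here, so precision is read from the columns alone. TPM are relative, so a rise of abundant genes lowers the others.

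Levels were compared as mean ± SD. limma 3.58.1 (R 4.3.3) was fitted to log2(TPM + 1) of all 9 columns with an intensity trend, over the 12819 genes whose TPM averaged 1 or more; fold changes of low genes are understated on this scale. Scripts were tested on simulated data. The 10 genes are all named; of 8 pathway lists, every gene called between LPS + Ska and LPS and the 2 largest calls per list between LPS and DMSO are named except 1, which is counted in the lists but not reported here, and Dohh, Atp13a3, Hif1a, Nfkb1, Stat3, the pseudogenes and Vti1b were named after their values were seen. Members and lists were chosen with earlier results of these data known. Slc66a1 and Pycr3 were found under older symbols through RefSeq synonyms, and of 55401 identifiers 55141 had a symbol. Copies were searched with blastn 2.17.0 in GENCODE transcripts of the same build. Copies of a gene were summed as TPM, which ignores differences in transcript length. Alternatives were another pseudocount (0.1), filters (none, 0.1 or 5 TPM), scalings, call rules, samples in the fit, a replicate block, treatments of the tied columns, and each column left out.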

Additional observations from a re-analysis of the deposited data

How the results depend on the processing

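The labels share the numbers 5, 6 and 7 across groups. Deviations from the group means correlated at 0.38, 0.15 and 0.13 between LPS and LPS + Ska and at -0.03 to 0.08 between DMSO and the treated groups, and only those between LPS and LPS + Ska were all above 0.1, the level for pairing. As replicate 5 is the mean of replicates 6 and 7 in both of those groups, these are not 3 separate pairs. On the log2 scale such a mean lies at or above the group mean, so replicate 5 deviates upward in both groups with or without pairing. These correlations therefore cannot decide whether the numbers pair the samples, and this was not settled. With the replicate block, the counts of called genes stayed within 1.5 times those reported, while 3 adjusted p-values of limma went above 0.05: Gch1 between LPS + Ska and LPS (0.0666), and Asl (0.0501) and Slc7a1 (0.0761) between LPS and DMSO; Nos2 (0.0391) and Acod1 (0.0418) between LPS + Ska and LPS stayed below it. The block changed no call under the adjusted p and fold limits together among the genes named.

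With any filter that let Ass1 in (no filter, the 0.1 TPM filter, and TPM rescaled without mitochondrial and ribosomal protein genes), or with copies added, 1 of the 10 genes was called lower between LPS and DMSO and 1 higher between LPS + Ska and LPS; with replicates 6 and 7 alone the second was lost. Without a filter, most residual variances were 0 and limma warned that its variance prior was unreliable. By adjusted p alone, 4 of the genes were higher and 1 lower between LPS and DMSO (26.2% and 34.2% of all tested genes), and 1 was higher and 2 lower between LPS + Ska and LPS (8.89% and 19.7%). Under the same rule, listed pathway genes called higher and lower became 16 and 40 between LPS and DMSO, 15 and 19 between LPS + Ska and LPS, and 14 and 41 between LPS + Ska and DMSO (22.7% and 40.6% of all tested genes). Between LPS + Ska and LPS, median-ratio scaling called 5 listed genes higher, and the 0.1 TPM filter with replicates 6 and 7 alone called 2 lower. The filters of 0.1 TPM and the summed copies were chosen after seeing the data. Apart from the entry of Ass1 through the filter, the causes were not tested.

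Directions turned only for differences near 0. With 1 column left out at a time, Arg2 between LPS and DMSO ranged from -0.074 to 0.38, Odc1 between LPS + Ska and LPS from -0.025 to 0.042, Irf8 in that comparison from -0.19 to 0.031, and Slc7a1 between LPS + Ska and DMSO from -0.069 to 0.11. Irf8 was also 0.010 with median-ratio scaling. With unknown depth, the levels of Arg1, Arg2, Ass1 and Slc7a2 near 0 come with no counting error.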
